A study of Mus musculus with 3 samples.

Results

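Shared intergenic regions are stretches of open chromatin that lie away from every protein-coding gene and carry an ATAC-seq peak in each of 3 mouse embryonic stem cell peak lists. ATAC-seq marks open chromatin by the insertion of sequencing adapters with the transposase Tn5. Peaks of the 3 lists that overlapped by at least 1 bp were merged into 130604 union regions on chromosomes 1 to 19 and X. Of these, 41957 regions, 32.1%, held a peak of every list. The 14856 shared intergenic regions are those of the 41957 whose midpoint lay inside no protein-coding gene and more than 1 kb from the start and end of every such gene. For comparison, 12192 shared regions lay within 1 kb of a gene end (a start or an end) and 14909 lay inside a gene. The regions were chosen by the presence of a peak in all 3 lists and by position, so presence is described here and not tested.

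All cells derive from CGR8, a mouse embryonic stem cell line, and were grown in serum with LIF and the inhibitors CHIR99021 and PD184352. The SES4.1 line made Halo-Sox2 from a transgene switched on with doxycycline at 300 ng/mL, and SES5.1 made Halo-Sox2a from such a transgene at 70 ng/mL, each for 20 hours. Both were stained with 50 nM Halo-SiR dye and sorted with 1 intensity gate for both proteins. The control line SES11 has no inducible transgene, and the labels do not say whether it received doxycycline or was sorted. The labels do not say what change sets Sox2a apart from Sox2. Each group is 1 library of 1 line, so line, dose, sorting and protein cannot be told apart, no test is possible, and intervals on shares cover counting error only.

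The Halo-Sox2 list holds 88898 peaks, that of Halo-Sox2a 83995 and that of the control 72638. Their scores, the authors' own values per peak, start at 13 in every list and have medians of 149, 101 and 85.0, and read depth is unknown. A score was therefore used only through its rank within its own list. A peak at an end of the gene was present for 4, 5 and 5 of 6 pluripotency markers in the lists of Halo-Sox2, Halo-Sox2a and the control, respectively, and also for 4 of 4 fibroblast markers, 3 of 3 neural markers and 2 of 3 primitive endoderm markers in each of the lists. Peaks at gene ends thus do not separate these cell types. As a percentile of their own list (100 is the top), the best peaks of the pluripotency markers had medians of 78.8, 82.7 and 63.7, and those of the fibroblast markers 26.6, 50.9 and 54.5. Neural markers had 72.0, 61.9 and 31.7, and primitive endoderm markers 63.0, 75.1 and 49.8. The medians of the pluripotency, neural and primitive endoderm markers were thus higher in the lists of both Sox2 proteins than in the control list. Not so for Zfp42 (97.6, 99.1 and 99.8), nor for Sox17 in Halo-Sox2 (69.9, 95.4 and 72.6). The other markers of these types were higher with both proteins wherever they had a peak, but Nanog had none in Halo-Sox2. One of them is Sox2 itself, at 81.7, 100.0 and 64.6. Both Halo lines carry a transgene for a Sox2 protein, and whether its reads add to that peak was not tested. Each median rests on few genes, and a list percentile depends on the peaks that only that list holds. Whether other cell types have a part in the results was not tested.

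Open chromatin away from genes, like that inside genes, holds many enhancers, short stretches at which transcription factors gather and act on promoters at a distance. Open chromatin away from genes also holds promoters of non-coding RNAs, transfer RNA genes transcribed by RNA polymerase III, and sites of the insulator protein CTCF. Sox2 is a factor of the high-mobility-group family that maintains pluripotency together with Oct4 and can bind its sites on nucleosomes.

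Of the regions, 409 covered a promoter window, from 250 bases before to 50 bases after the start, of 422 lncRNA (long non-coding RNA) genes. The windows of the 5 such regions with the best mean rank over the lists are printed here because their sequences resemble one another. BC002059, the next in order, was added after its sequence was seen. Sequences are from RefSeq, GRCm38.p6, on the strand of the gene. Capitals mark runs of at least 12 bases that another of the 6 windows holds on either strand.

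Gm40987: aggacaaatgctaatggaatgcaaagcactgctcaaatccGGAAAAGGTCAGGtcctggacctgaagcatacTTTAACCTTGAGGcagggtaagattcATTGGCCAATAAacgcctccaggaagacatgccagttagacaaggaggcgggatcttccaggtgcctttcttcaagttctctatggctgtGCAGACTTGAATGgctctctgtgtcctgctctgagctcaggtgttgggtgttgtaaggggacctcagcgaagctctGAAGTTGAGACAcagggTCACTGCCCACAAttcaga
A630089N07Rik: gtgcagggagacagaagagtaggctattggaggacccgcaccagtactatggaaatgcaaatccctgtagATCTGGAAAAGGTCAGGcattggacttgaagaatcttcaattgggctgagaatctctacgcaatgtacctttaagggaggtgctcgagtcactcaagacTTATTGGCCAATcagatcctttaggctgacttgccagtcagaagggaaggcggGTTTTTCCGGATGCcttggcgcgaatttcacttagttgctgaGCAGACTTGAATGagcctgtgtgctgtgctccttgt
E430024I08Rik: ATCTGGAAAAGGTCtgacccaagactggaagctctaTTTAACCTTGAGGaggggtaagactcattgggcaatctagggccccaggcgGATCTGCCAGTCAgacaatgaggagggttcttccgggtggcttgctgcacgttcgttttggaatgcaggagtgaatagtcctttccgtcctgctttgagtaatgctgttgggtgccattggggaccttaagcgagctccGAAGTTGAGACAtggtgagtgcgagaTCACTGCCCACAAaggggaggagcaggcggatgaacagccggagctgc
BC002059: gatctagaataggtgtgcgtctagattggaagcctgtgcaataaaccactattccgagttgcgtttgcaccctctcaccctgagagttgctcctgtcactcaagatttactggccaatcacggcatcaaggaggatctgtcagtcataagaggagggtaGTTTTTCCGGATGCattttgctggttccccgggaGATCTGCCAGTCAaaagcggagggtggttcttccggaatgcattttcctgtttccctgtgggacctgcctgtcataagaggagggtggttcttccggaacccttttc
Gm26611: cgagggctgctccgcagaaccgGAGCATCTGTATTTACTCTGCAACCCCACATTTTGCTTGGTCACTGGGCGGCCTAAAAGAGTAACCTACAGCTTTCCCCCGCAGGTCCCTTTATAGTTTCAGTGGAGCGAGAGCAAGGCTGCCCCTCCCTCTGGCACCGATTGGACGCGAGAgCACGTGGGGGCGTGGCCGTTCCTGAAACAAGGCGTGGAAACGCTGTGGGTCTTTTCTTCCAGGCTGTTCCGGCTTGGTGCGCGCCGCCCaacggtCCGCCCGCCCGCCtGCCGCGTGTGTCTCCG
Gm26567: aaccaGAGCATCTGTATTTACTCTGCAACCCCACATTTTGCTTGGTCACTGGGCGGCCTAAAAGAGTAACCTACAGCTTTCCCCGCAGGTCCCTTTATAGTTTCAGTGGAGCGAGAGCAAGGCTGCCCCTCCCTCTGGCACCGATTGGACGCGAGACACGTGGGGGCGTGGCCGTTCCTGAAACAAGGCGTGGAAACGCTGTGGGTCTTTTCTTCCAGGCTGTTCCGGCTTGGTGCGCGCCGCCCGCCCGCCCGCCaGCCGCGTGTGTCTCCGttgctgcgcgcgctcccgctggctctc

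In order, these are chr13:65990947-65991246 (minus strand), chr16:98082390-98082689 (minus), chr13:74462920-74463219 (minus), chr17:16951286-16951585 (plus), chr9:88858718-88859017 (plus) and chr9:88599390-88599689 (plus). The first 4 windows, on 3 chromosomes, aligned with one another. Gm40987 and E430024I08Rik matched in 197 of 270 aligned columns, or 73.0%. A630089N07Rik and BC002059 matched in 70 of 93 columns, or 75.3%. A630089N07Rik shared the 14-base run atctggaaaaggtc with E430024I08Rik. Gm26611 and Gm26567, beside the genes Trim43c and Trim43a, matched in 271 of 283 columns, or 95.8%, with 1 unbroken run of 89 bases. Reads from such copies may not be told apart, so the values of these regions are uncertain.

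The Gm40987 region ranked 499 in Halo-Sox2, 13 in Halo-Sox2a and 20 in the control list. The A630089N07Rik region ranked 1076, 623 and 183, the E430024I08Rik region 1650, 207 and 485, and the BC002059 region 2802, 654 and 680. The Gm26611 region ranked 627, 219 and 254, and the Gm26567 region ranked 1412, 488 and 414. A run of 20 bases shared with a promoter window elsewhere in the genome, on another chromosome or over 1000 bp away, was present in 9 of the best 20 regions over a lncRNA start (45.0%, Wilson 95% interval 25.8 to 65.8%). The share fell to 36.0% of the best 50, 31.0% of the best 100 and 29.8% of the other 309. Over all 473 windows of shared intergenic regions the share was 29.8% (25.9 to 34.1%), beside 30.0% (29.1 to 30.9%) of the 9691 lncRNA windows in no union region. It was 23.8% (21.2 to 26.7%) at shared gene ends, 19.5% (15.2 to 24.6%) in shared regions inside genes and 17.9% (12.6 to 24.8%) in intergenic regions that not all lists held.

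Away from genes, a union region was less often common to the 3 lists than at gene ends. Of 57939 intergenic union regions, 25.6% (25.3 to 26.0%) held a peak of every list, against 26.3% of regions inside genes and 76.1% of regions at gene ends. Seen from the lists, intergenic positions made up 35.4% of the regions of all 3 lists, 47.0% of the Halo-Sox2-only regions, 45.8% of the Halo-Sox2a-only regions and 55.7% of the control-only regions. The shared fraction was 29.2% at 1 to 5 kb and 30.8% (29.7 to 32.0%) at 5 to 10 kb, and then fell with each distance group to 18.3% (17.1 to 19.5%) beyond 500 kb. Between 5 to 10 kb and beyond 500 kb, the control-only fraction went from 11.2% to 22.2%, the Halo-Sox2-only fraction from 19.9% to 29.6% and the Halo-Sox2a-only fraction from 14.3% to 9.30%. The median shared intergenic region lay 29.2 kb from the nearest protein-coding gene, with quartiles of 9.33 and 98.6 kb. Of 11577 regions whose nearest gene has a known strand, 52.6% lay on the side of its start.

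**Figure D1:**
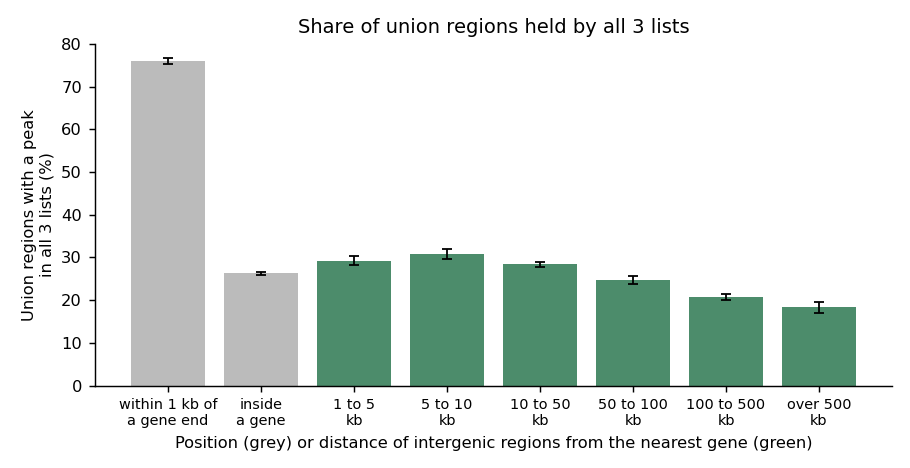
Share of union regions with a peak in all 3 lists (y axis, percent), at gene ends and inside genes (grey) and for intergenic regions by distance from the nearest protein-coding gene (green), with Wilson 95% intervals as bars. Gene ends stand at 76.1%, and the intergenic share ends at 18.3% beyond 500 kb.

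The peaks of the 3 lists mostly fell on the same stretch. In 14724 regions (99.1%) at least 1 base was common to a peak of each list, while in 132 (0.889%) the 3 peaks were joined only in a chain. A single peak of each list made up 14223 regions (95.7%). The midpoints of the highest peaks lay a median of 67.5 bp apart between Halo-Sox2 and the control, 61.5 bp between Halo-Sox2a and the control and 60.5 bp between the 2 Halo lists. Regions had a median width of 750 bp, close to the 771 bp of regions inside genes and under the 1070 bp of those at gene ends. The highest peak was widest in the Halo-Sox2a list in 46.0% of regions, with median widths of 532, 620 and 534 bp in Halo-Sox2, Halo-Sox2a and the control.

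Intergenic regions ranked below gene ends in every list. Their median list percentile, where 100 is the top of a list, was 55.3 in Halo-Sox2, 68.8 in Halo-Sox2a and 63.9 in the control, against 74.5, 81.3 and 80.9 at gene ends. Regions inside genes had medians of 55.3, 68.0 and 60.6. A list percentile also depends on the peaks that only 1 list holds, so lists are compared below through the percentile of a region among the 41957 regions that all share. On that scale the intergenic medians were 42.7, 44.7 and 44.5, and the gene-end medians 65.2, 64.6 and 68.2. The distributions overlapped widely, and 9.24%, 8.37% and 7.85% of intergenic regions stood in the highest 10.0% of all shared regions.

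**Figure D2:**
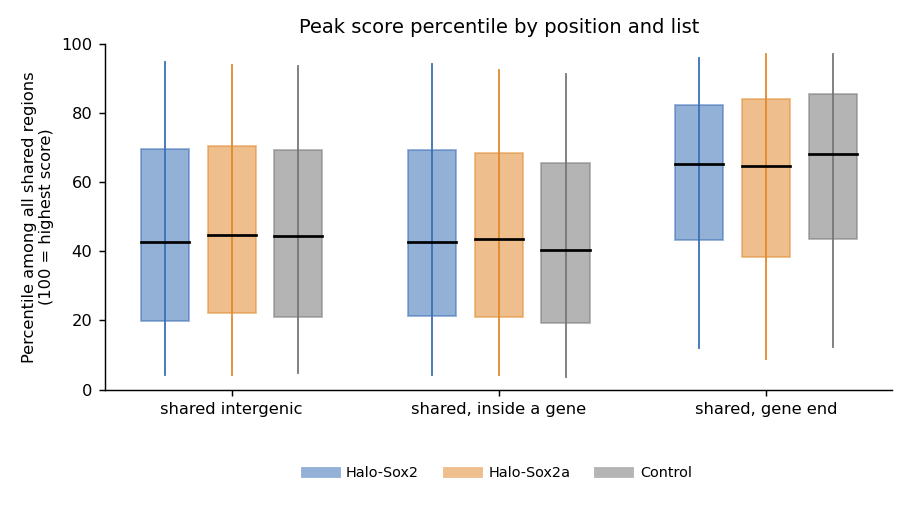
Percentile of each region's highest peak among the 41957 shared regions (y axis), for intergenic regions, regions inside genes and regions at gene ends, in each list (colours). Boxes span the quartiles, black lines are medians and thin lines reach from the 5th to the 95th percentile, and the gene-end medians (64.6 to 68.2) lie above the intergenic medians (42.7 to 44.7).

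The order of intergenic regions changed more from list to list than that of gene ends. Spearman's rho between lists, a description over 14856 regions that share a library within each list, was 0.42 for Halo-Sox2 with the control, 0.65 for Halo-Sox2a with the control and 0.62 between the Halo lists. At the 12192 gene ends it was 0.83, 0.87 and 0.87, and inside genes 0.46, 0.66 and 0.65. A shift is the percentile in the first list of a pair minus that in the second. A shift of at least 25 points is counted here as up or down. Both contrasts with the control use the same control library.

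From the control to Halo-Sox2, 2582 intergenic regions (17.4%) shifted up, where 14.2% of all shared regions did, and 2887 (19.4%) shifted down, where 13.9% did. From the control to Halo-Sox2a, 1933 (13%) shifted up against 10.4% of all shared regions, and 1882 (12.7%) shifted down against 9.94%. From Halo-Sox2a to Halo-Sox2, 1850 (interval 11.9 to 13%) shifted up against 10.6%, and 2199 (14.8%) shifted down against 10.6%. The median shifts were -2.29, -0.187 and -1.44 points for Halo-Sox2 minus control, Halo-Sox2a minus control and Halo-Sox2 minus Halo-Sox2a, and those of all shared regions were -1.60, -0.511 and -0.386. By percentile of the whole list the intergenic median for Halo-Sox2a minus control turned to 2.48, where all shared regions had 1.72, and the downward shifts numbered 1078. On that scale 1845 regions shifted up and 3812 down for Halo-Sox2 minus control, and 855 up and 3925 down for Halo-Sox2 minus Halo-Sox2a, so the balance of upward and downward shifts in both depends on the scale. Shares of all shared regions were not counted on that scale. By percentile among shared regions, the intergenic shares lie above those of all shared regions in both directions. Regions inside genes also had upward shares above the background, at 18.5%, 13.6% and 12.6% in the order of contrasts above, with 14.4%, 9.58% and 12.3% down. Gene ends lay below it, with 5.21% up and 6.39% down between Halo-Sox2 and the control.

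Regions of middle rank have more room to move, so positions were also set side by side within 5 groups of equal size by the mean percentile over the lists (quintiles). In the middle quintile, 26.1% of 3222 intergenic regions shifted up and 26.6% down from the control to Halo-Sox2, against 9.77% and 11.7% of 2047 gene-end regions. Regions inside genes had 26.6% up and 20.2% down in that quintile. In the next quintile up, downward shifts were counted for 24.4% of intergenic regions, 16.2% of regions inside genes and 6.98% of gene ends. For Halo-Sox2a against the control that quintile had 17.7% up and 10.2% down among intergenic regions, and 19.8% up and 7.56% down inside genes.

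The regions farthest from genes stood lower with both Sox2 proteins than in the control. The 713 regions over 500 kb from a protein-coding gene had a median control percentile of 57.8, above the 44.5 of all intergenic regions. Their median shift was -7.56 points from the control to Halo-Sox2 and -6.81 to Halo-Sox2a. Of them 216 (30.3%) shifted down and 108 (15.1%) up in Halo-Sox2, and 163 (22.9%) down and 65 (9.12%) up in Halo-Sox2a. All shared regions had 13.9% down and 14.2% up in Halo-Sox2, and 9.94% down and 10.4% up in Halo-Sox2a, so the upward shares of the far regions were close to the background. Between Halo-Sox2 and Halo-Sox2a the median shift of the same regions was -1.33 points, close to the -1.44 of all. For Halo-Sox2a against the control the nearer distances had medians between -1.49 and 0.615 points. In every quintile of the mean percentile the far regions had the lower median in both contrasts, with -15 against -3.90 points for Halo-Sox2 and -15.7 against -2.07 for Halo-Sox2a in the quintile above the lowest. Since both contrasts subtract the same control library, a high value in that library lowers both. By percentile of the whole list the far medians were -11.7 and -2.41 points, beside -5.28 and 1.72 for all shared regions.

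**Figure D3:**
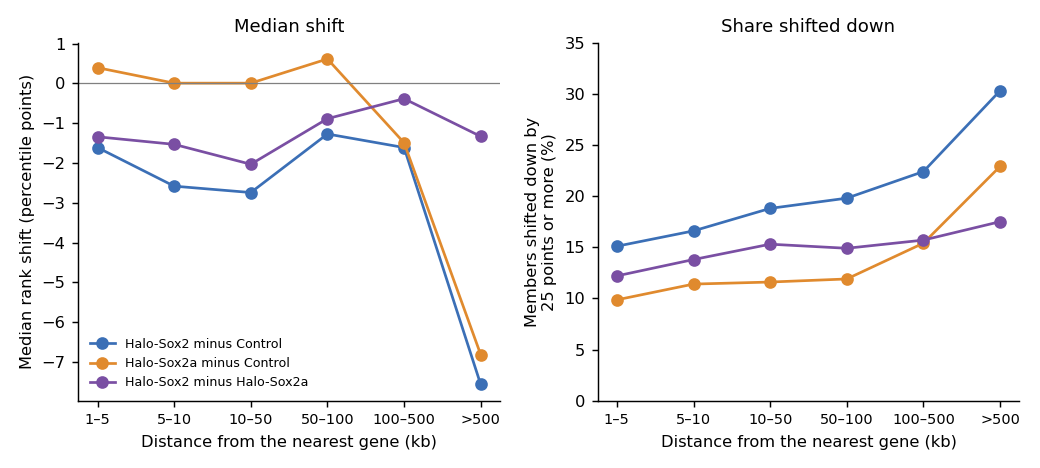
Median rank shift in percentile points (left) and percent of regions shifted down by at least 25 points (right) against distance from the nearest protein-coding gene, for the 3 pairs of lists. Beyond 500 kb both contrasts with the control drop, to medians of -7.56 and -6.81, and Halo-Sox2 minus Halo-Sox2a stays at -1.33.

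The far regions were nearest to 270 protein-coding genes. Non-coding genes, pseudogenes and receptor V and J segments were not counted as genes, so a far region may lie among them. The nearest gene serves only to give the place of a region. Pcdh9, a protocadherin, had 13 far regions with median shifts of -54.2 points in Halo-Sox2 and -37.7 in Halo-Sox2a against the control. Rpia, for an enzyme of the pentose phosphate pathway, had 13 with medians of -42.4 and -15.7. Dsc3, a desmosomal cadherin, had 7 with -37.2 and -28.3. The 15 far regions nearest Cdh8, a classical cadherin, had -2.97 and -9.76. The 13 nearest Fancl, a ubiquitin ligase of DNA repair, had positive medians of 14.3 and 10.0. Of the 3 regions farthest from any protein-coding gene, 2 lay 2210 and 2150 kb from Pcdh17 and the other 2190 kb from Pik3c3. They were low to middling, between the percentiles 4.80 and 62.3 among shared regions in the 3 lists.

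At the top of the lists, 5 of the 6 best-ranked intergenic regions lay within 0.641 Mb of chromosome 8 (chr8:19784367-20425291). The best, at chr8:19784367-19785229 and 31.2 kb from 4930467E23Rik, ranked 3 in Halo-Sox2, 5 in Halo-Sox2a and 4 in the control list, with scores of 5322, 4950 and 4102. The next, at chr8:20424145-20425291, ranked 6, 7 and 6. A region at chr17:70963673-70963891, 10.2 kb from the myosin light chain gene Myl12b, ranked 11, 11 and 7. Another near Mid1, at chrX:170002878-170006904, ranked 25, 18 and 11 and was the second widest of all at 4027 bp. The widest, 4326 bp near Sfi1, a gene for a centrosomal protein, ranked 22422, 9383 and 1625. Among the best 100 ranks of each list there were 30, 33 and 31 intergenic regions, and 11 regions held such a rank in all 3. No regions prone to artefact signal were filtered out here. How uniquely reads map to these top-ranked and widest regions is unknown, so their ranks are uncertain.

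The largest shifts took regions from one end of the order to the other. The region at chr11:8723043-8723863, 58.7 kb from Tns3, a gene for the adhesion protein tensin, stood at percentile 99.0 in Halo-Sox2, 99.4 in Halo-Sox2a and 0.713 in the control. It was high in the lists of both induced proteins and near the bottom of the control list. A region 19.3 kb from Aqp11, a water channel gene, had 98.3, 97.8 and 0.713. By contrast, a region 1.33 kb from the telomere protein gene Terf2ip (chr8:112021313-112022411) had 99.9, 46.7 and 1.19. Near Frzb, which encodes a secreted Wnt inhibitor, chr2:80461655-80462670 had 96.1, 0.776 and 2.32, and near Trib2, a pseudokinase gene, chr12:16155581-16156462 had 98.9, 3.64 and 4.80. The Frzb and Trib2 regions were high in Halo-Sox2 only.

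In the other direction, the region at chr4:26944223-26945264, 598 kb from Manea, had 2.09 in Halo-Sox2, 82.8 in Halo-Sox2a and 97.1 in the control. A region 1300 kb from Pcdh9 (chr14:91717126-91718009) had 4.1, 88.5 and 98.8. Both were low in Halo-Sox2 alone. Near Vcan, which encodes the matrix proteoglycan versican, a region stood at 4.1, 46.5 and 97.2. A region 376 kb from Cdh9, a cadherin gene, was low with both proteins, at 6.40, 5.64 and 85.9. Near Zfp810, a zinc finger gene, a region had 4.1, 91.3 and 82.9, and 2.00 kb from the odorant receptor gene Olfr153 one had 4.1, 97.7 and 91.8.

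On either side of the 1 kb limit, regions were of low to middle rank. The nearest regions kept, 1.01 kb from Depdc1b, Capn5 and Slc26a5, stood between percentiles 24.2 and 68.8 in the 3 lists. The nearest left out, at 1.00 kb or under from Col14a1, Bcl2l14 and Arhgap18, stood between 3.06 and 44.3.

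Transfer RNA genes were the non-coding gene type most often under these regions. Of 332 tRNA genes outside protein-coding genes, 178 (53.6%, 48.2 to 58.9%) overlapped a shared intergenic region. The share was 24.9% (24.0 to 25.8%) for 9017 lncRNA genes, whose median length is 9110 bp against 72.0 bp for tRNA genes. For other short genes it was lower, at 7.07% of miRNA genes, 4.62% of small nuclear RNA genes and 2.44% of small nucleolar RNA genes. Where a tRNA gene met any union region at all, that region was a shared intergenic one for 87.3% of genes, beside 85.3% for small nuclear RNA genes (29 of 34), 63.4% for miRNA genes and 43.3% for lncRNA genes. It was so for all 5 receptor J segments that met a region. None of 56 ribosomal RNA genes was overlapped (0 to 6.42%).

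**Figure D4:**
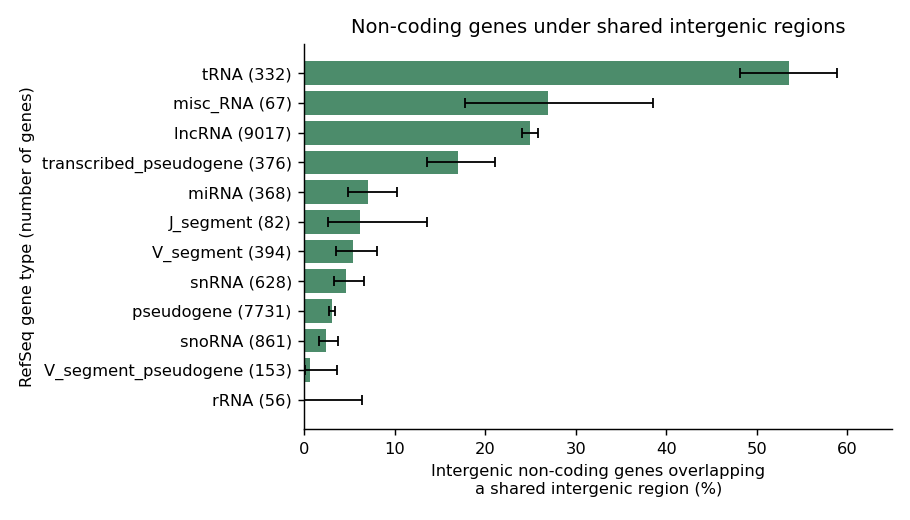
Percent of RefSeq non-coding genes outside protein-coding genes that overlap a shared intergenic region (x axis), by gene type with the number of genes, for types with at least 50 genes, with Wilson 95% intervals. tRNA genes stand at 53.6% and lncRNA genes at 24.9%.

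The 128 regions over tRNA genes were of middle rank and moved little. Their median percentiles among shared regions were 45.4 in Halo-Sox2, 45.5 in Halo-Sox2a and 49.2 in the control. In Halo-Sox2 against the control, 4 shifted up and 6 down by 25 points or more (3.12% and 4.69%), below the shares of all shared regions. In Halo-Sox2a against the control 2 shifted up (1.56%) and 9 down (7.03%), beside 10.4% and 9.94% of all shared regions. Between Halo-Sox2a and Halo-Sox2 6 shifted up (4.69%) and 1 down (0.781%), beside 10.6% each way. The median shifts were -1.29, -4.08 and 3.23 points.

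tRNA genes differed by chromosome. On chromosome 13, 72 of 103 tRNA genes lay under a region, and on chromosome 17, 9 of 10. On chromosome 6 it was 1 of 51. Of tRNA genes for cysteine, 3 of 54 were overlapped, and of those for leucine 16 of 20 and for arginine 13 of 16. Without chromosome 6 the share over all tRNA genes was 63.0%, and without chromosome 13 it was 46.3%.

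Most regions stood alone among the shared intergenic regions. When regions were chained across the gap commonly used to stitch enhancers into super-enhancers, 9704 (65.3%) had no neighbour, and 505 clusters held 3 or more regions, 1822 in all (12.3%). The largest cluster, 12 regions over 64.8 kb between Gpx5 and Trim27 (chr13:21215155-21279974), had 11 regions over tRNA genes. A cluster of 11 over 65.0 kb lay by Irf2bpl and Lrrc74a on chromosome 12. Next came 10 regions over 32.6 kb near Mef2c, a gene for a muscle and neuronal transcription factor. A cluster of 9 lay by Zfp281 and Nr5a2, the latter a gene for a nuclear receptor active in early embryos. The other cluster of 9 lay by Olfr1324 and Stk26 on the X chromosome. Regions of 1 cluster did not share a level. The median range within a cluster of 3 or more was 50.6, 52.7 and 50.7 percentile points in the 3 lists.

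Genes of naive pluripotency, the ground state of embryonic stem cells, were nearest to 98 regions. These covered 21 of the 25 listed genes, while Nr0b1, Dppa4, Lin28a and Rif1 were nearest to none. Their median percentiles among shared regions were 42.2 in Halo-Sox2, 56.6 in Halo-Sox2a and 48.1 in the control, beside 42.7, 44.7 and 44.5 for all intergenic regions. The median shift was -5.07 points for Halo-Sox2 minus control, 4.27 for Halo-Sox2a minus control and -9.49 for Halo-Sox2 minus Halo-Sox2a. From Halo-Sox2a to Halo-Sox2, 21 regions (21.4%) shifted down and 9 (9.18%) up, beside a background of 10.6% each way. Against the control, Halo-Sox2a had 19 (19.4%) up and 7 (7.14%) down, beside 10.4% and 9.94%. Halo-Sox2 against the control had 19 up (19.4%) and 20 down (20.4%), close to the 17.4% and 19.4% of all intergenic regions, beside 14.2% and 13.9% of all shared regions. Regions near 1 gene are not independent of one another. When regions within 50 kb of a listed gene were taken instead, the median shifts were -0.566, 5.39 and -2.84 points, and with lists of equal size that of Halo-Sox2 minus Halo-Sox2a was -5.98. By percentile of the whole list Halo-Sox2 minus control was -10.2, where all shared regions had -5.28. The sizes depend on these choices.

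**Figure D5:**
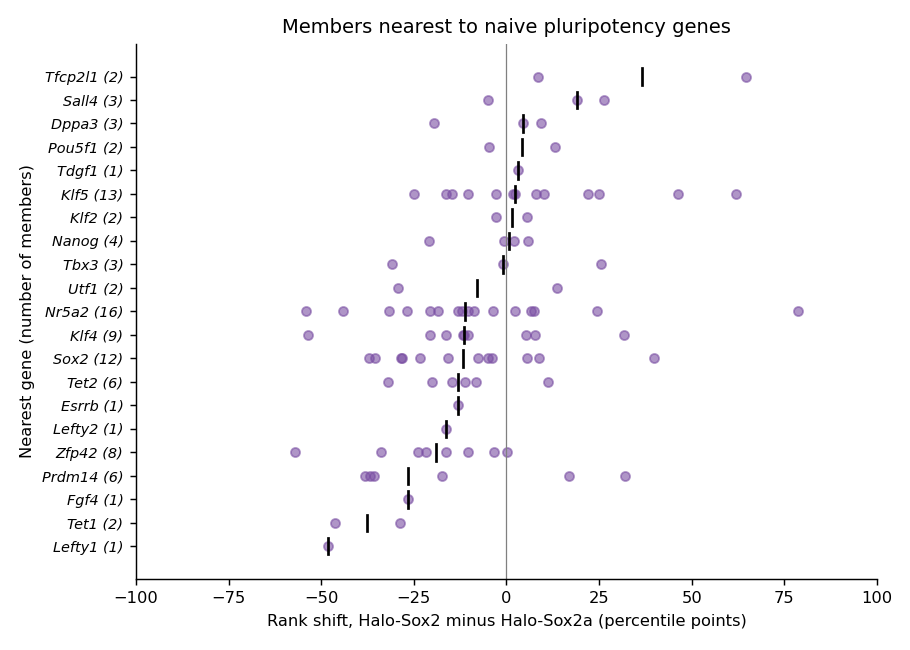
Rank shift from Halo-Sox2a to Halo-Sox2 in percentile points (x axis) of the 98 regions nearest to naive pluripotency genes (points), by gene, with the gene's median as a black bar. Of the 98 points 62 (63.3%) lie below 0, where 53.4% of all shared intergenic regions do, and 13 of 21 gene medians lie below 0.

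Sox2 itself was nearest to 12 regions, of which 9 stood lower in Halo-Sox2 than in Halo-Sox2a. Of all shared intergenic regions 53.4% did so, the share to set beside such counts for the genes below as well. The Sox2 control region, a distal enhancer downstream of the gene, held 3 of the 12. At 104 kb (start chr3:34756637) the percentiles were 1.37, 36.9 and 12.2 in Halo-Sox2, Halo-Sox2a and the control. At 108 kb (34759974) they were 10.4, 47.6 and 4.80, and at 109 kb (34761098) 38.6, 66.6 and 78.1. All 3 stood lower in Halo-Sox2 than in Halo-Sox2a, and only the last was highest in the control. The region at 502 kb (35154239) did the opposite, with 92.9, 53.0 and 44.5.

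Oct4 is encoded by Pou5f1, and the region 1.34 kb from that gene (chr17:35503671) had 80.1, 67.0 and 41.1, higher with both proteins than in the control. Nanog, a core homeodomain factor, had its strongest region at 4.74 kb (chr6:122702264), with ranks of 1341, 726 and 1894 and percentiles of 97.6, 98.3 and 95.5. It was near the top in every list. The region 1.19 kb from Nanog had 62.4, 56.6 and 28.6.

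The Kruppel-like factors form a set of partly exchangeable regulators of the naive state. Klf4 had 9 regions, and its best, 62.8 kb away (chr4:55463741), had 83.8, 95.2 and 88.0. The region 145 kb from Klf4 had 70.9, 91.5 and 25.6, and the one 520 kb away had 16.4, 70.0 and 34.7. For 7 of the 9 the Halo-Sox2a percentile was above that of the control, as for 49.0% of all shared intergenic regions. Klf5 had 13 regions, of which 8 stood higher in Halo-Sox2 than in Halo-Sox2a, as did 46.6% of all. The Klf5 region at 53.2 kb had 89.7, 27.6 and 22.2, and that at 136 kb had 99.0, 91.1 and 43.5. Klf2 had 2 regions with all values between 86.0 and 93.6.

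Zfp42, also called Rex1, is a marker of the naive state. It had 8 regions, and 7 of them stood lower in Halo-Sox2 than in Halo-Sox2a. The strongest, 14.0 kb away (chr8:43320541), ranked 2029, 84 and 79. The region at 31.8 kb had percentiles of 6.40, 63.5 and 23.4, and that at 46.8 kb had 24.2, 58.1 and 62.3. Prdm14, a repressor of differentiation genes, had 6 regions, and the best, at 28.3 kb, had 77.8, 95.2 and 96.6. The Prdm14 region at 9.21 kb had 41.0, 76.8 and 81.5, and 4 of the 6 were lower in Halo-Sox2 than in Halo-Sox2a.

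Lefty1, an inhibitor of Nodal signalling, had 1 region, 9.93 kb away (chr1:180924646), with percentiles of 35.4, 83.7 and 83.9. It was low in Halo-Sox2 alone. The Lefty2 region at 4.00 kb had 75.5, 91.6 and 94.5. Fgf4, a growth factor gene controlled by Sox2 and Oct4, had a region at 3.64 kb with 38.4, 65.1 and 37.6, highest in Halo-Sox2a. Esrrb, for an orphan nuclear receptor, had 1 region at 35.4 kb, low in all lists at 12, 25.2 and 16.6. Tbx3 had its best region at 25.4 kb with 57.0, 57.9 and 68.7.

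Some pluripotency genes went the other way. Tfcp2l1, for a factor of the LIF pathway, had a region at 45.0 kb (chr1:118729734) with 87.6, 23.0 and 2.32, and its best region, at 1.86 kb, had 74.5, 66.1 and 61.8. Sall4, a zinc finger regulator, had a region at 2.36 kb with 87.6, 61.1 and 10.9. The Nr5a2 region at 430 kb (chr1:137390159) had 96.6, 17.9 and 6.34, although 11 of the 16 regions of Nr5a2 were lower in Halo-Sox2 than in Halo-Sox2a.

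The other gene lists held fewer regions but were also shorter, at 10 to 16 genes against 25, so the counts are not compared. Neural genes were nearest to 57 regions with median shifts of -3.16 points for Halo-Sox2 minus control, -2.53 for Halo-Sox2a minus control and 5.25 for Halo-Sox2 minus Halo-Sox2a. Trophoblast genes had 39 regions with -4.59, -1.25 and 2.25. Formative and primed genes had 26 with -8.21, -5.48 and 4.20. Mesendoderm genes had 22 regions with -4.52, -4.19 and 0.0548. Genes of LIF and STAT3 signalling had 18 with -6.87, -5.22 and 0.533, and primitive endoderm genes 16 with 7.88, 0.990 and 4.45. Fibroblast genes had 10 regions, housekeeping genes 7 and liver genes 3. For Halo-Sox2 minus Halo-Sox2a, the medians of the fibroblast, liver and housekeeping lists were -11.4, -4.04 and -1.50 points.

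Regions over lncRNA starts ranked higher than the rest, but they were also chosen in a way that favours wide regions. The 409 regions over a lncRNA promoter window had median percentiles of 51.9, 58.3 and 54.9 in Halo-Sox2, Halo-Sox2a and the control, against 42.0, 44.3 and 43.5 for the other 14447. Their highest peaks were wider, at medians of 752, 844 and 740 bp against 527, 615 and 530 bp. A region had to cover the promoter window to be counted, so a greater width is partly built in. The 2 sets were not matched for width, and how much of the difference in percentile goes with it was not tested. The median shift was -1.79 points for Halo-Sox2 minus control and 0.436 for Halo-Sox2a minus control.

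In base composition the windows lay between lncRNA starts in no region and starts at gene ends. A window held a median of 9 CpG and 53.0% GC, where windows in no region held 3 CpG and 47.3% GC and windows in shared regions at gene ends 27 and 66.3%. Short motifs were searched on both strands, and no motif contains another. CCGGAAG, the core of an ETS factor site, was present in 10.8% of the 473 windows (8.30 to 13.9%), against 2.33% of windows in no region, 15.4% at gene ends and 8.92% of all 32619 promoter windows. CACGTG, the E-box, was present in 11.6% against 5.14% in no region, 10.4% at gene ends and 7.20% of all. AGGGGGC, part of the CTCF site, was present in 11.6% against 4.75%, 17.1% and 10.7% of the same sets. GGGCGTGG, bound by KLF and SP factors, was present in 6.13% against 1.24%, 9.88% and 5.36%.

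The letters of SOX sites did not stand out in the same way beside windows in no region. No motif share here or above was adjusted for base composition, in which the sets of windows differ. Enrichment beyond composition was therefore not tested for any motif. CATTGT was present in 16.1% of windows (13 to 19.6%), against 16.6% in no region, 4.61% at gene ends and 12.2% of all. CTTTGT was present in 23.5% against 23.3%, 8.45% and 18.7%. The octamer ATGCAAAT was present in 13 windows (2.75%, 1.61 to 4.65%), against 1.97% in no region, and 1 of the 13 is the A630089N07Rik window printed above, at bases 55 to 62. The windows of intergenic regions that not all lists held had CATTGT in 23.2% (17.2 to 30.5%) and CTTTGT in 39.7% (32.3 to 47.7%).

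Regions whose lncRNA window held either SOX form had higher median shifts toward the Sox2 proteins. The 148 such regions had median percentiles of 58.3, 61.9 and 52.5 in Halo-Sox2, Halo-Sox2a and the control, and the 261 without had 49.0, 57.9 and 56.8. The median shift was 3.11 points (quartiles -12.1 and 19.7) against -3.18 (-15 and 7.13) for Halo-Sox2 minus control. For Halo-Sox2a minus control it was 5.42 (-6.26 and 20.6) against -0.316 (-11.6 and 8.31). The quartiles overlap. Within windows of under 10 CpG the medians were 4.13 and 8.08 points in 97 regions with SOX letters, and -5.22 and 0.179 in 116 without. At 10 or more CpG they were 2.41 and -1.08 in 51 regions with, and -1.55 and -0.593 in 145 without, so for Halo-Sox2a the higher value of regions with the letters was not seen there.

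Of the 368 microRNA genes outside protein-coding genes, 26 (7.07%) overlapped a region at least in part. MicroRNA hairpins lay wholly inside 16 regions, 21 of the 1005 hairpins in the RefSeq table, which also holds those inside and near protein-coding genes. The mature forms of those that share a seed (bases 2 to 8, in capitals), of the best-ranked hairpin (Mir210) and of let-7i are shown. A microRNA pairs with its target messages through the seed.

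miR-132-3p: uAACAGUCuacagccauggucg
miR-212-3p: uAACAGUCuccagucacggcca
miR-9-5p: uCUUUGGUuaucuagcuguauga
miR-9-3p: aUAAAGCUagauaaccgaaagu
miR-210-3p: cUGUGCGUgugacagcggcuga
let-7i-5p: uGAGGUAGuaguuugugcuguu

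Mir132 and Mir212, which share the seed AACAGUC, lie in 1 region (chr11:75172988-75173863) with percentiles of 54.9, 41.7 and 37.9 in Halo-Sox2, Halo-Sox2a and the control. The miR-9 family acts in neural development. Its hairpins Mir9-1 and Mir9-3 give the same mature sequences, with the seeds CUUUGGU and UAAAGCU, from regions of unlike level. Mir9-1 (chr3:88214913-88216032) had 19.7, 15.0 and 18.1, and Mir9-3 (chr7:79504607-79505498) had 64.2, 64.8 and 24.1. Mir210, known for its induction in low oxygen, lies 3.17 kb from Rassf7 in a region ranked 4513, 4337 and 4730 (chr7:141221292-141222356). The let-7i region (chr10:122984994-122986779) had 72.1, 77.0 and 63.7. At the other end, the Mir375 region had 11.0, 7.16 and 6.75, and the Mir196b region, 1.30 kb from Hoxa10, had 10.7, 6.57 and 1.61.

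The Mir290a cluster encodes the main microRNAs of mouse embryonic stem cells. It was singled out after values had been seen. Of its mature forms, 3 share the seed AAGUGCU, and that of miR-290a-3p is AAGUGCC.

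miR-290a-3p: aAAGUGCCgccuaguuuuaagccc
miR-291a-3p: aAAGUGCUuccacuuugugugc
miR-294-3p: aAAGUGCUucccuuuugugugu
miR-295-3p: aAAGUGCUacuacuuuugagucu

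Within 20 kb before the Mir290a hairpin (chr7:3218626-3218708) lay 4 shared intergenic regions. That at 17.2 kb (chr7:3201135-3201787) had percentiles of 45.8 in Halo-Sox2, 94.3 in Halo-Sox2a and 72.8 in the control. The region at 11.9 kb had 65.6, 72.9 and 89.3, and that at 6.50 kb had 85.7, 82.5 and 82.0. The nearest, at 4.99 kb, had 48.0, 34.7 and 18.4. From far to near, the order of the lists thus changed: the first 2 were lowest in Halo-Sox2, and the nearest 2 were highest in it.

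By chromosome, intergenic regions made up from 27.9% of shared regions (chromosome 19) to 45.4% (chromosome 13). Their median shift from the control to Halo-Sox2 was below 0 on every chromosome but 15, where it was 0.509 points, and was lowest on chromosome 8 at -5.80. Gene ends also had a median below 0 on every chromosome, with -1.08 on chromosome 8 and -0.486 on chromosome 15. The medians of regions inside genes ran from -2.19 on chromosome 8 to 2.28 on chromosome 19.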

How the data were processed

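Per the labels' protocols, chromatin was cut with Tn5 and sequenced, 1 library per group. The submitters' processing notes name STAR, SAMtools, MACS2 3.0.0a7, deepTools 3.3.0, MACS3 and the mm10 build, without their roles. Each deposited file lists peaks called for 1 library, with a score per peak given by the authors whose scale is not given in the sources used here. Read depth and replicates are not given, so no test was made.

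Peaks were merged, placed against 21627 protein-coding genes of RefSeq GRCm38.p6 and ranked by score within each list with Python 3.11.15, pandas 2.3.3, numpy 2.4.6 and scipy 1.17.1. A region took its highest peak in each list. Merging, placing and ranking were tested on simulated data and against bedtools. Intervals are Wilson 95% intervals. Windows were aligned locally with Biopython. Members and gene lists were chosen with earlier results of these data known. Regions named singly are those of best mean rank, of largest shift for each pair of lists, farthest from genes, widest, nearest to the 1 kb limit, or nearest to listed pluripotency genes. Others named were chosen after their values were seen. Alternatives tried were other overlaps, gene distances, gene sets, list sizes, score limits, rank scales and chaining distances.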

Additional observations from a re-analysis of the deposited data

How the results depend on the processing

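Of 135 recomputed values, 94 stayed within the interval of the main value, or for counts within 1.5 times of it, 40 moved outside and 1 changed sign. With peaks at or above percentile 50 of each list the regions numbered 6105 and the shared fraction was 22.0%. That fraction was 24.9% with 50% overlap of the shorter peak, 26.6% with peaks up to 500 bp apart joined, 25.2% beyond 5 kb from genes, 24.3% with all annotated genes and 24.5% with lists of equal size. The median list percentile became 52.4 in Halo-Sox2 and 67.6 in the control with lists of equal size. The gap to gene ends in Halo-Sox2, Halo-Sox2a and control was -16.0, -9.84 and -13.3 beyond 2.5 kb, -16.8, -10.8 and -14.5 with all annotated genes, and -18.0, -10.8 and -14.5 with lists of equal size.

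On the whole-list percentile the median shift was -7.38 points for Halo-Sox2 minus control, 2.48 for Halo-Sox2a minus control, which changed sign, and -10 for Halo-Sox2 minus Halo-Sox2a. On that scale the median of all shared regions itself was -5.28, 1.72 and -7.22. Downward shifts then numbered 1078 for Halo-Sox2a minus control, and Halo-Sox2 minus Halo-Sox2a had 855 up and 3925 down. Regions over 500 kb from genes had -11.7, -2.41 and -8.77. At 40 points or more by percentile among shared regions, there were 1478 up and 1358 down, 800 up and 603 down, and 834 up and 842 down, in that order of contrasts. Shares of all shared regions were not counted at that limit, nor on the whole-list percentile. Chaining at 5 kb gave 120 clusters and at 25 kb 976. Counting regions within 50 kb of a listed gene gave 4 for primitive endoderm, 25 for trophoblast, 5 for liver and 20 for housekeeping. The tRNA share was 63.0% without chromosome 6 and 46.3% without chromosome 13. The alternatives for pluripotency, far regions and tRNA genes were chosen after seeing the data. The cause of each move was not tested.

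No paired analysis was possible because each group is 1 library. Depth is unknown, so a region missing from a list cannot be told from one below its calling limit.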
